A study of Salmo salar with 8 samples.

Results

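Among the genes detected in nuclei of the Atlantic salmon gill, 39 were high only under short photoperiod. They were selected on their measured level: unique molecular identifiers (UMIs, the tags that count captured RNA molecules) were summed per gene over all nuclei of a library and scaled to counts per 1000000 UMIs of that library (CPM), and a gene was kept where the lower of the 2 short photoperiod libraries held at least 10 CPM and at least 1.5 times the highest of the 6 other libraries. This left 39 of 34514 genes, from 13599 genes that reached 10 CPM in both short photoperiod libraries. That these genes are high under short photoperiod is therefore the selection itself, and the levels below are a description of it, without a test.

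The libraries came from snap frozen gill of Atlantic salmon (Salmo salar) of a commercial strain, raised in freshwater. T1 was parr (juvenile freshwater fish) kept in constant light, T2 was by the labels parr after 8 weeks of short photoperiod, T3 was by the labels fish given 8 further weeks of constant light after it, and T4 was fish treated as T3 and then held 24 h in seawater. The study's methods give fewer days for both light periods than these weeks. Each time point had 2 libraries, called sample 1 and sample 2, and the files of all 8 libraries hold 19709 barcodes, each taken here as a nucleus, which is more than the study's own count of nuclei. The labels do not say how many fish a library holds, so the spread between duplicates may be partly technical.

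Short days are the winter signal that young salmon need before lengthening days turn them into seawater-ready smolts. Salt uptake and secretion by specialised gill cells change direction when a smolt enters the sea, and leukocytes live within the gill epithelium. Chemokines, 3 of which are among the 39 genes, are small secreted proteins that guide leukocytes through tissue by binding receptors on their surface, and prostaglandin synthases and myeloperoxidase belong to the inflammatory answer of vertebrate tissues.

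The libraries held 2770081 to 4383507 UMIs. The T2 libraries stood at opposite ends in depth: median UMIs per nucleus were 638 in T2 sample 1 and 1031 in T2 sample 2, against 801 to 1013 in the other 6, and nuclei with at least 2500 detected genes held 8.43% and 47.0% of their UMIs, against 16.5% to 26.8%. Of 19660 different barcodes, 49 occurred in 2 libraries and 0 in 3 or more. Of 14 lists of cell type markers, the summed level of the goblet cell list was the only one with both T2 libraries above the other 6, at 2530 and 3295 CPM in T2 against 1052 to 2051 CPM, and 2 of its 6 loci, the MUC5AC locus LOC106602669 and the MUC2 locus LOC106608496, showed this by themselves. LOC106602669 alone held 2078 and 2832 CPM in T2, against 728 to 1577 CPM, and so made up most of the sum. No locus of this list was at 0 in all libraries. The list for mitochondrion-rich cells was lower in both T2 libraries than in the other 6 (3942 and 4331 CPM against 5386 to 7228 CPM). So were the lists for muscle and for neural cells. The neural list held very few counts, at 1.05 and 0.744 CPM in T2 against 1.23 to 7.6 CPM. The part of these differences in the levels below was not tested.

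**Figure D1:**
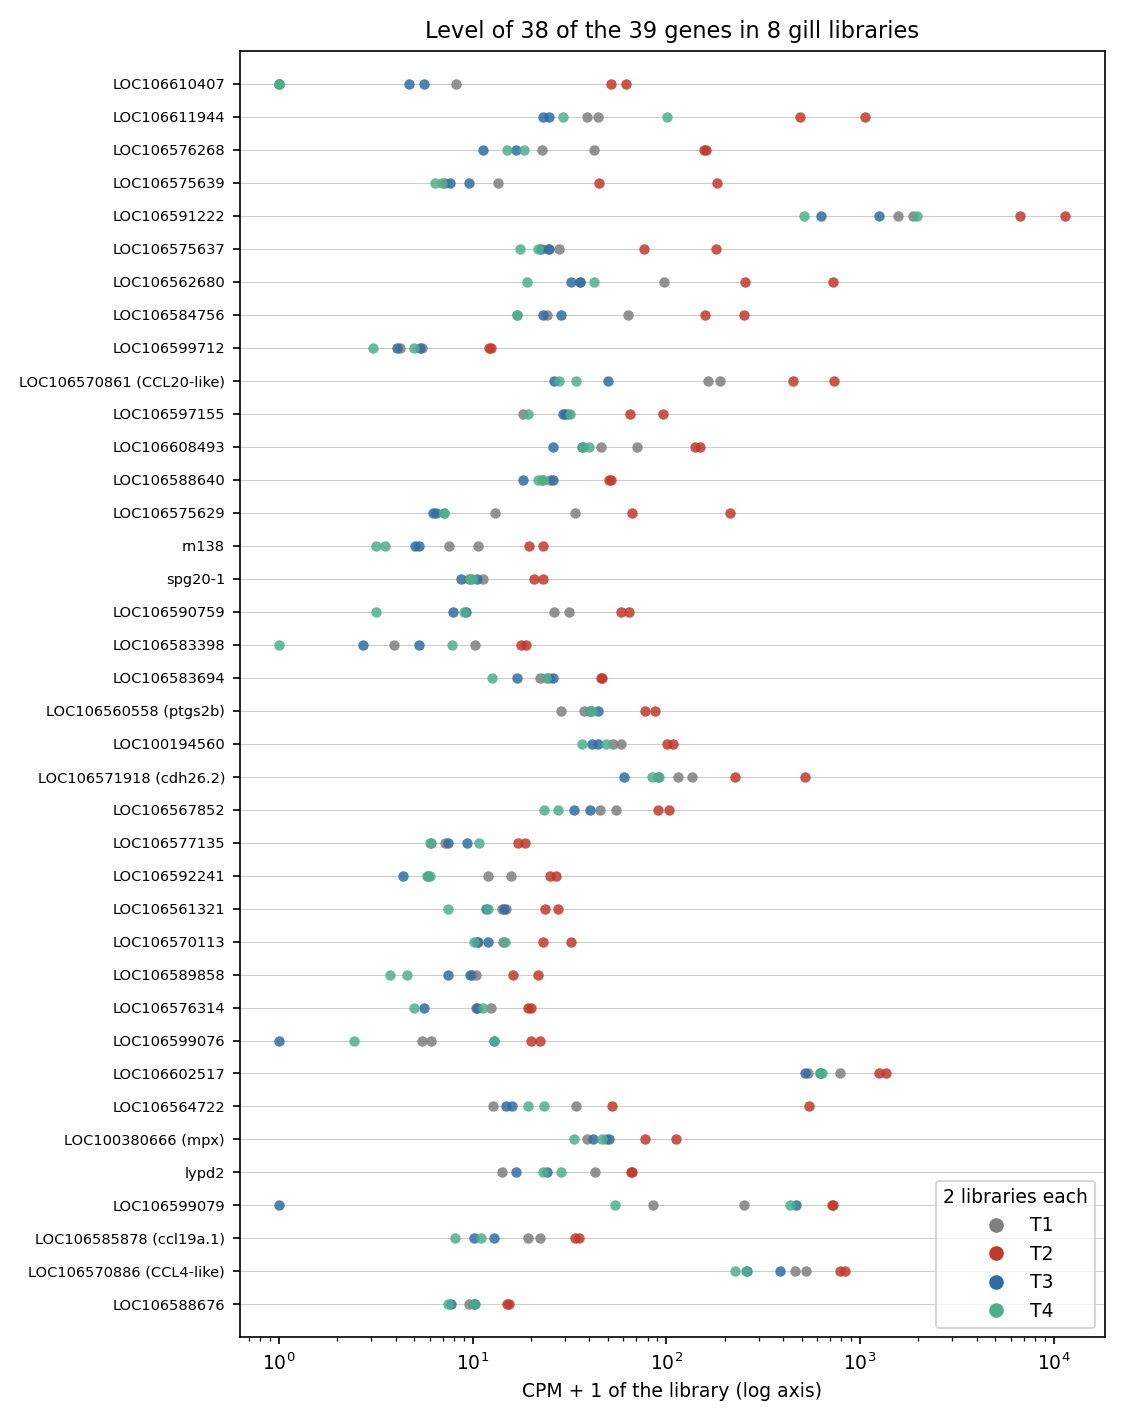
Level of 38 of the 39 genes in each of the 8 libraries, as CPM + 1 on a log axis; 1 point is 1 library, coloured by time point, and genes run from the highest ratio of the lower T2 library to the highest other library at the top (7.01) to the lowest (1.504). All T2 points lie to the right of the other 6 because the genes were selected for this. A point at 1 is a library without a counted UMI of the gene.

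The ratio of the lower T2 library to the highest other library had a median of 1.79 and reached 2 in 12 genes. Just inside the limit of 1.5 were LOC106588676 with 1.504, LOC106570886 with 1.506 and LOC106585878 with 1.54. Just outside it were relb, a subunit of the NF-kappaB transcription factors, with 1.49, LOC106596271, another C-C motif chemokine 20-like gene, with 1.49, and LOC106602671 with 1.48. The highest other library was a T1 library for 27 of the 39 genes and a T3 or T4 library for 12. The share of all genes with a T1 library highest outside T2 was not counted, so nothing is read from these numbers.

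The files and tables used here name 10 of the 39 genes, and 29 are known only by a locus identifier. The gene table lists 30 as protein-coding and has no entry for 9. LOC106602517, one of these 9, is annotated by the study as a long non-coding RNA.

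The chemokine genes were the largest group with a shared name. LOC106570861, a C-C motif chemokine 20-like gene, had 452 and 737 CPM in T2, against 188 and 163 CPM in T1, 49.3 and 25.2 CPM in T3 and 33.3 and 27.1 CPM in T4. In mammals CCL20 attracts cells that carry the receptor CCR6, among them dendritic cells and T cells. The T1 libraries lay between T2 and the late time points, with no overlap between T1 and either T3 or T4. LOC106570886, a C-C motif chemokine 4-like gene, had 835 and 789 CPM in T2, against 524 and 461 CPM in T1, 387 and 260 CPM in T3 and 256 and 225 CPM in T4. LOC106585878 (ccl19a.1, C-C motif chemokine 19-like; CCL19 is in mammals a ligand of CCR7, which leads cells to lymphoid tissue) had 32.6 and 34.5 CPM in T2, against 21.2 and 18.3 CPM in T1, 11.8 and 9.21 CPM in T3 and 7.07 and 10.1 CPM in T4. All 3 chemokine genes thus had both T1 libraries above all 4 T3 and T4 libraries, as had 14.8% of the 24815 genes tested. In the same libraries the summed level of the myeloid or dendritic cell marker list was 182 to 279 CPM in T3 and T4 against 431 and 549 CPM in T1, and that of the T cell list 81.0 to 131 CPM against 224 and 269 CPM. The part of these cells in the T1 levels was not tested.

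LOC106570861 and LOC106570886 are direct neighbours in the gene order of the Ssal_v3.1 assembly. A search by name, made after the values had been seen, found 17 chemokine genes in the files, of which 10 had at least 10 CPM in both T2 libraries. Of the 14 outside the selection, 6 had both T2 libraries above the other 6, beside 3.91% of the 24815 genes tested, and since the family was picked with its values known nothing is read from this share. Of these, LOC106596271 had 202 and 188 CPM in T2 against 38.6 to 126 CPM in the other 6, and its highest library outside T2 was T4 sample 1, where LOC106570861 had 33.3 CPM. The interferon-induced chemokine gene cxl10 did not share the pattern, with 37.5 and 40.6 CPM in T2 against 53.1 and 49.4 CPM in T1.

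**Figure D2:**
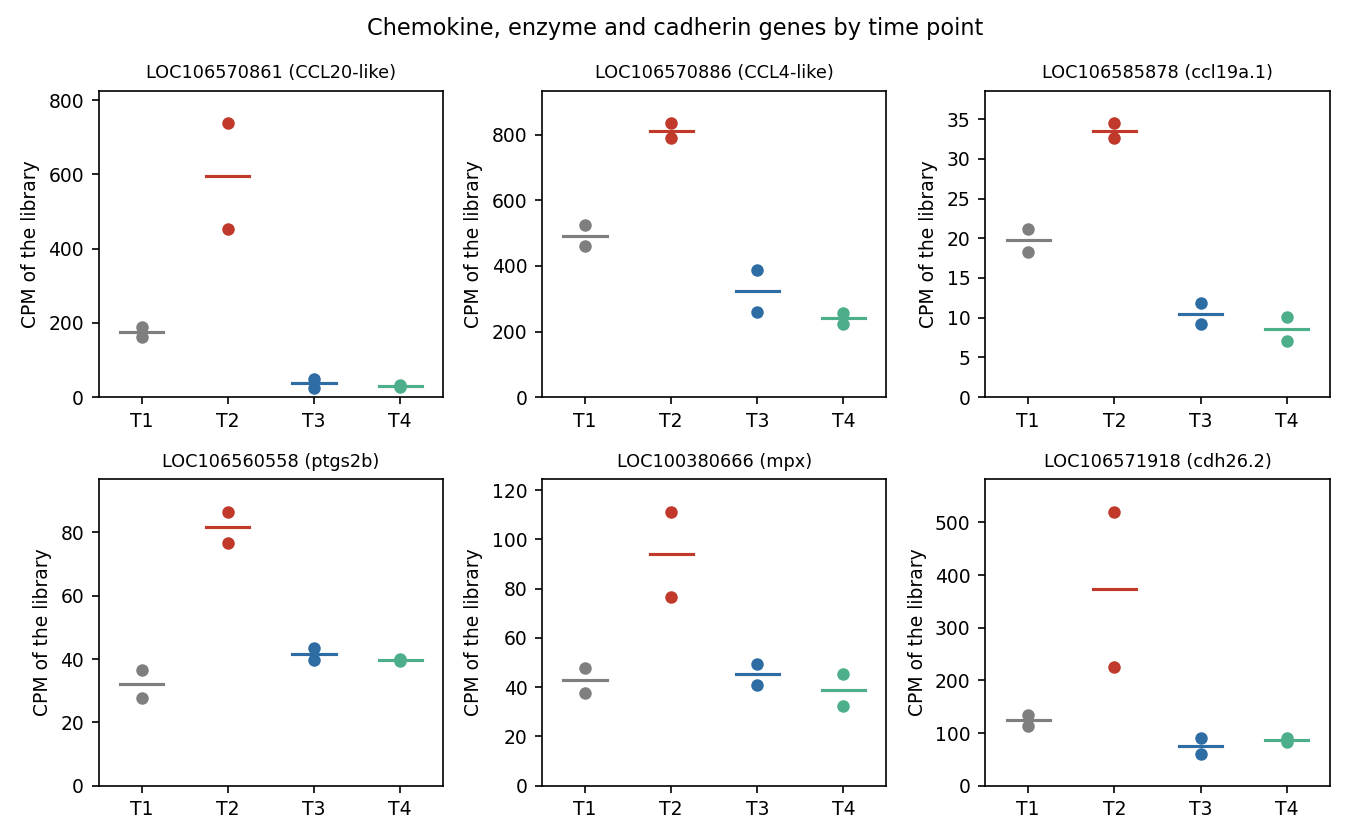
CPM of 6 named genes by time point; points are single libraries (2 for each time point) and lines are their means. The 3 chemokine genes in the upper row lie higher in T1 than in T3 and T4, while ptgs2b and mpx lie no higher in T1 than in T3 (at most 47.7 CPM in T1 against 49.6 CPM in T3).

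The genes of 2 enzymes of inflammation followed. LOC106560558 (ptgs2b, the inducible prostaglandin synthase also known as cyclooxygenase 2) had 76.8 and 86.5 CPM in T2, against 36.5 and 27.6 CPM in T1, 43.5 and 39.6 CPM in T3 and 40.2 and 39.4 CPM in T4. LOC100380666 (mpx, myeloperoxidase, an oxidant-forming enzyme of neutrophil granules) had 111 and 76.6 CPM in T2, against 37.8 and 47.7 CPM in T1, 49.6 and 40.8 CPM in T3 and 32.4 and 45.5 CPM in T4. Over T1, T3 and T4 the values ran from 27.6 to 43.5 CPM for ptgs2b and from 32.4 to 49.6 CPM for mpx. The gene mpx lies outside the rule for named genes and was singled out after its values had been seen, as were lypd2, LOC106564722, LOC106589858, LOC106592241 and LOC106599076 below.

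Among genes of the cell surface, LOC106571918 (cdh26.2, a cadherin, a family of calcium-dependent adhesion proteins) had 520 and 225 CPM in T2, against 135 and 114 CPM in T1, 59.4 and 89.6 CPM in T3 and 90.3 and 83.8 CPM in T4. The T2 libraries themselves differed 2.31-fold. The gene lypd2, which encodes a small protein with a LY6/PLAUR domain, had 64.9 and 65.4 CPM in T2 against 13.1 to 42.1 CPM in the other 6.

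Named genes with other roles were low. For rn138 (RNF138, an E3 ubiquitin ligase) the values were 18.6 and 22.1 CPM in T2, against 9.65 and 6.56 CPM in T1, 4.04 and 4.30 CPM in T3 and 2.51 and 2.17 CPM in T4. The spartin gene spg20-1 had 19.6 and 22.1 CPM in T2 against 7.67 to 10.4 CPM. These genes rest on 242 (rn138) and 328 (spg20-1) UMIs in all.

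The highest levels belonged to loci without a name. LOC106591222 had 6715 and 11490 CPM in T2, against 1876 and 1573 CPM in T1, 632 and 1259 CPM in T3 and 1967 and 512 CPM in T4, which makes it the most abundant of the 39 genes. T4 overlapped both T1 and T3, while both T3 libraries lay below both T1 libraries. Together the 39 genes held 13930 and 18800 CPM in T2 against 2074 to 4625 CPM in the other libraries, and without LOC106591222 still 7220 and 7308 CPM against 1562 to 2750 CPM. LOC106602517, the long non-coding RNA, followed with 1247 and 1357 CPM in T2 against 521 to 787 CPM.

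LOC106610407 had the highest ratio, with 50.9 and 61.0 CPM in T2, against 0 and 7.25 CPM in T1. T3 had 4.61 and 3.68 CPM, and neither T4 library had a counted UMI. No counted UMI in T4 still allows up to 0.684 CPM (sample 1) and 1.08 CPM (sample 2), at 3 counts of the library total. This covers counting error only. The smallest number of nuclei for a gene to be listed for a library was 3. A gene not listed was set to 0, so it may still have had UMIs in fewer nuclei. LOC106611944 came second, with 489 and 1061 CPM in T2, against 37.8 and 43.5 CPM in T1, 23.9 and 22.1 CPM in T3 and 28.3 and 99.6 CPM in T4. LOC106576268 had 155 and 159 CPM in T2, against 41.3 and 21.8 CPM in T1, 10.4 and 15.7 CPM in T3 and 17.3 and 14.1 CPM in T4.

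The duplicates of T2 did not always match. They differed by more than 1.5-fold in 10 of the 39 genes and by more than 2-fold in 7, and 17 genes were higher in T2 sample 1 while 22 were higher in sample 2. LOC106564722 showed the widest gap, with 544 CPM in T2 sample 1 and 51.6 CPM in sample 2, against 11.7 to 33.2 CPM in the other 6 libraries. LOC106575639 (182 and 43.9 CPM in T2, against 5.42 to 12.6 CPM), LOC106575629 (213 and 65.7 CPM, against 5.22 to 33.0 CPM) and LOC106575637 (178 and 75.4 CPM, against 16.6 to 27.1 CPM) were also higher in sample 1, while LOC106562680 (255 and 723 CPM, against 18.1 to 96.5 CPM) was higher in sample 2. LOC106575637 and LOC106575639 overlap in Ssal_v3.1, so that their reads may not be fully separated, and their shared pattern counts once.

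A pair of loci, LOC106599079 and LOC106599076, differed strongly between the duplicates of T3 and of T4. LOC106599079 had 720 and 723 CPM in T2, against 251 and 84.6 CPM in T1, 0 and 467 CPM in T3 and 435 and 53.4 CPM in T4. LOC106599076 had 21.4 and 19.1 CPM in T2, against 5.09 and 4.49 CPM in T1, 0 and 11.97 CPM in T3 and 11.9 and 1.44 CPM in T4. Both genes thus had no counted UMI in T3 sample 1, which allows up to 0.865 CPM by counting error, and were low in T4 sample 2. For this pair the levels outside T2 varied more between duplicates than between time points.

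The remaining genes named by ratio were LOC106584756 (158 and 251 CPM as the lower and the higher T2 library, against 15.9 to 62.2 CPM), LOC106608493 (140 and 149 CPM, against 24.9 to 70.0 CPM), LOC106597155 (64.0 and 95.4 CPM, against 17.3 to 30.8 CPM), LOC106588640 (49.6 and 50.9 CPM, against 17.3 to 24.9 CPM), LOC106590759 (57.2 and 63.0 CPM, against 2.17 to 30.3 CPM), LOC106583694 (44.9 and 45.4 CPM, against 11.6 to 25.1 CPM), LOC100194560 (99.3 and 107 CPM, against 35.7 to 57.7 CPM) and LOC106567852 (89.5 and 102 CPM, against 22.4 to 54.1 CPM). LOC106599712, LOC106583398 and LOC106577135 were low throughout, at 11.2 to 17.9 CPM in T2 and at most 9.81 CPM elsewhere. Another 3 loci without a name had 18.2 to 31.2 CPM in T2 and at most 13.9 CPM elsewhere. Of all 39 genes, 10 had under 20 CPM in the lower T2 library and 11 had over 100 CPM.

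The question of where in the gill these genes are read was taken up by clustering the nuclei without the 39 genes and without hemoglobin genes, which gave 19 clusters numbered by size. A cluster was named only from markers. Cluster 1 (3464 nuclei) was T cell-like, with 9 of 9 T cell markers enriched. In it 10 of 13 erythrocyte markers and 3 of 7 myeloid or dendritic cell markers were enriched as well. Cluster 7, with 1173 nuclei, could not be named: 5 of 18 pavement cell markers and 1 of 6 goblet cell markers were enriched and none of the T cell, mitochondrion-rich cell or pillar cell lists.

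Cluster 7 had the highest level of 19 of the 39 genes, and it held 18.8% to 56.5% of the UMIs of each of these 19. The share of all genes that are highest in cluster 7 was not counted, so nothing is read from the number 19. For 6 of the 19 genes cluster 7 was the highest in all 8 libraries. For LOC106610407 and LOC106611944, which had the highest ratios, it was the highest in 2 of 8 libraries each. LOC106611944 had 37.2% of its UMIs in cluster 2 and 23.0% in cluster 7. LOC106562680, with 1327 CPM in cluster 7 and 210 CPM in cluster 2, the next highest, is also among the 10 genes that lead cluster 7, as are LOC106608493 and LOC106584756. Cluster 7 made up 9.72% and 4.63% of the nuclei in T2, against 1.97% to 7.72% in the other 6 libraries, so that the ranges overlapped. Of the UMIs, to which CPM is scaled, cluster 7 held 8.32% and 10.5% in T2, against 3.42% to 8.38% in the other 6. Cluster 2 held 21.5% and 17.1% of the UMIs in T2, against 8.40% to 15.2%, with both T2 libraries above the other 6. Levels with equal cluster shares are given below.

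Within cluster 7, levels are from the same libraries that chose the genes. LOC106591222 had 22060 and 42680 CPM there in T2, against 7029 and 16990 CPM in T1, 4180 and 6342 CPM in T3 and 8401 and 3793 CPM in T4. LOC106611944 had 1045 and 2734 CPM in T2, against 145 and 80.8 CPM in T1, 43.7 and 29.3 CPM in T3 and 41.4 and 113 CPM in T4. For 13 of the 19 genes both T2 libraries lay above the other 6 within cluster 7, beside 2.24% of 12251 genes with at least 20 UMIs there, a share from which nothing is read because the genes were chosen for this pattern.

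**Figure D3:**
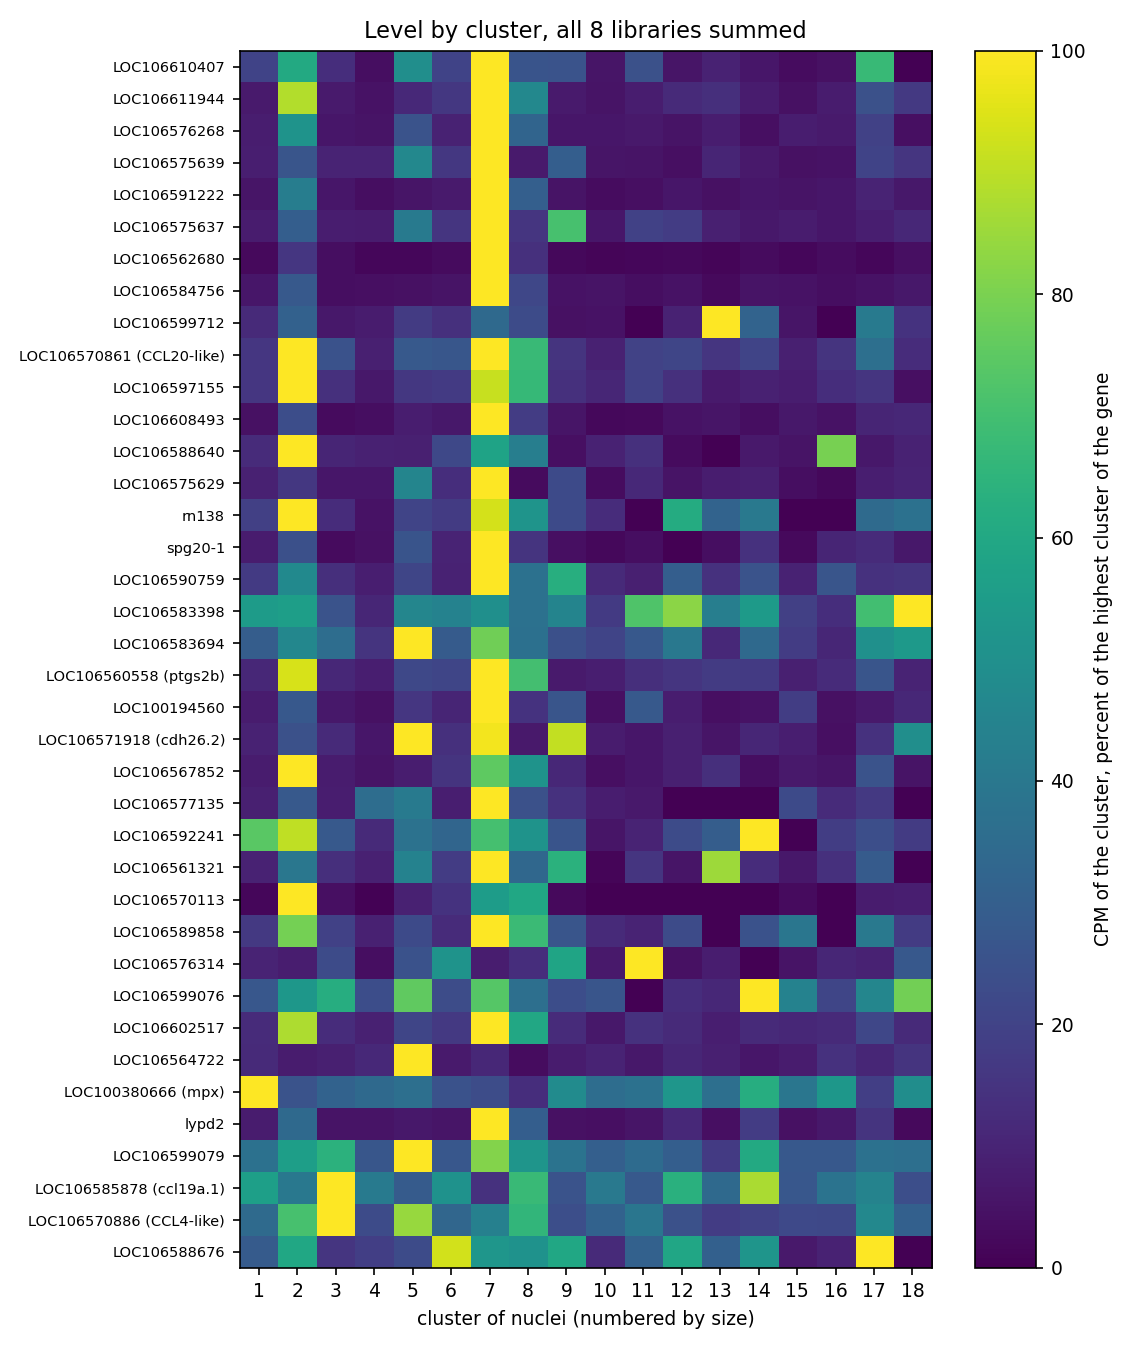
Level of 38 of the 39 genes in the 18 larger clusters of nuclei, all 8 libraries summed, as a percentage of the highest cluster of that gene; genes are ordered as by ratio. The column of cluster 7 is brightest for 19 genes, clusters 2 and 5 for 6 and 4 genes, and mpx is brightest in cluster 1.

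Other genes lay elsewhere. Cluster 2 had the highest level of 6 genes, among them the chemokine 20-like gene LOC106570861, at 517.2 CPM in cluster 2 and 516.8 CPM in cluster 7 over all libraries. Taken by library, cluster 2 was the highest for this gene in 1 of 8, and cluster 7 lay above cluster 2 in 6 of 8. In cluster 5, as in cluster 3, 4 of 7 basal epithelial cell markers were enriched. Cluster 5 had the highest level of 4 genes. One was LOC106564722, at 2071 and 435 CPM in this cluster in T2, against 229 and 105 CPM in T1, 82.3 and 45.6 CPM in T3 and 42.3 and 81.8 CPM in T4. Another was cdh26.2 (LOC106571918), at 563 CPM in cluster 5, 553 CPM in cluster 7 and 512 CPM in cluster 9 over all libraries. In the pooled T2 libraries it had 1208 CPM in cluster 9, against 1045 CPM in cluster 5 and 962 CPM in cluster 7. By library, cluster 5 was the highest for cdh26.2 in 2 of 8. The chemokine genes LOC106570886 and LOC106585878 were highest in cluster 3 over all libraries. For LOC106585878 the level was 36.5 CPM there and 31.9 CPM in cluster 14. By library, cluster 3 was the highest in 2 of 8 for LOC106585878 and in 6 of 8 for LOC106570886. The gene mpx (LOC100380666) was highest in the T cell-like cluster 1 with 144 CPM over all libraries. The myeloid-like cluster 14 followed with 89.3 CPM. Of 7 myeloid or dendritic cell markers, 3 were enriched in cluster 1 and 5 in cluster 14. Taken by library, cluster 1 was the highest for mpx in 2 of 8 only.

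The pattern was not limited to the highest cluster. Of 350 pairs of a gene and a cluster with at least 20 UMIs, 200 (57.1%) had both T2 libraries above the other 6, against 3.5% of such pairs over all genes, and since the genes were chosen for this pattern nothing is read from the difference. LOC106591222 did so in 16 of 18 clusters and LOC106611944 and LOC106570861 in 15 of 17 each. In the T cell-like cluster 1, LOC106591222 had 2227 CPM in T2 and 558 CPM in the other libraries pooled, and LOC106602517, which is abundant too, had 323 CPM in T2 and 268 CPM in the others. RNA set free from lysed cells also reaches every droplet, and its part in these levels outside cluster 7 was not tested.

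**Figure D4:**
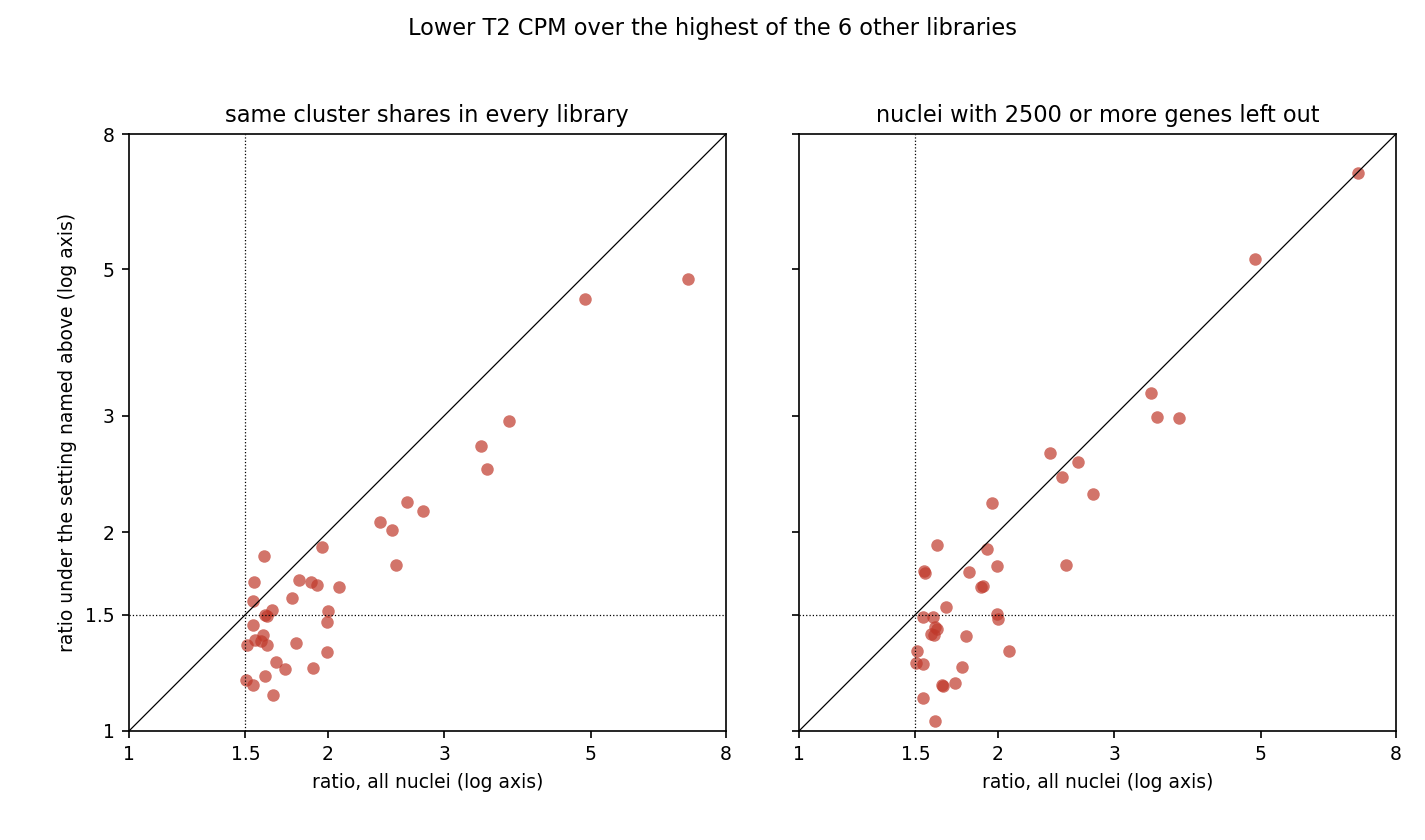
Ratio of the lower T2 library to the highest other library for each of the 39 genes, with all nuclei on the x axis and, on the y axis, with the cluster shares held equal in every library (left) or with nuclei of 2500 or more detected genes left out (right); both axes are logarithmic, the diagonal marks equal ratios and dotted lines mark 1.5. All 39 genes stay above 1 in both panels, and 20 (left) and 21 (right) still meet the whole selection. LOC106599712 lies above 1.5 on the left (2.02) but has under 10 CPM in its lower T2 library there.

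With every library given the same cluster shares, all 39 genes kept a ratio above 1. The whole selection was still met by 20 genes and no longer by 19, and the median ratio was 1.53. LOC106599712 was 1 of the 19. It kept a ratio of 2.02 but had 9.29 CPM in its lower T2 library, under the limit of 10. The genes were chosen for this ratio in the same libraries, so nothing is read from how many stayed above 1. LOC106610407 (4.83), LOC106611944 (4.51), LOC106576268 (2.95) and LOC106591222 (2.70) were then highest. The lowest were LOC106567852 (1.13), lypd2 (1.17) and LOC106588676 (1.19). Without nuclei of 2500 or more genes, which are unevenly spread over the T2 libraries, 21 genes kept a ratio of at least 1.5, with a median of 1.54. The share of cells of a type and the RNA of each cell can be told apart here only as far as the clusters separate cell types.

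The comparisons of T2 with T1 and of T3 with T2 are those that chose the genes, and no result is read from them. With edgeR's quasi-likelihood test on UMIs summed per library and Benjamini-Hochberg adjustment over 24815 genes, at an adjusted p under 0.01, 0 of the 39 genes passed for T2 with T1, where 0.00403% of all genes passed as higher in T2. At an unadjusted p under 0.05 there were 36, beside 7.06% of all genes, and DESeq2 called 9, beside 29 of all 24815 genes. For T3 with T2, 10 of the 39 passed as lower in T3, where 0.177% of all genes did.

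The selection did not use the difference between T3 and T1. It did set the same upper limit on both, so the comparison is not independent of it. This comparison asks whether the genes were back at their first level after constant light was restored. T3 fish were also older than T1 fish, and age cannot be told apart from light here. None of the 39 passed at an adjusted p under 0.01, where 0.125% of all genes passed in either direction. At an unadjusted p under 0.05 there were 9 (23.1%), all lower in T3, against 16.2% of all genes in either direction. The share of all genes that were lower in T3 at this limit was not counted. DESeq2 called 2, beside 290 of all 24815 genes. The median log2 fold change of T3 over T1 was -0.42 over the 39 genes and 0.00 over all genes. Of the 39 values, 31 were below 0, beside 49.99% of all genes.

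At an adjusted p under 0.05, a limit listed as an alternative, 3 of the 39 genes were lower in T3, as were 1.38% of all genes. LOC106570861, the chemokine 20-like gene, had 49.3 and 25.2 CPM in T3 against 188 and 163 CPM in T1, a log2 fold change of -2.28 ± 0.35 (standard error, edgeR, adjusted p = 0.016). LOC106590759 had 6.92 and 8.29 CPM in T3 against 30.3 and 25.2 CPM in T1 (-1.91 ± 0.39, edgeR, adjusted p = 0.039), and LOC106592241 had 4.90 and 3.38 CPM in T3 against 10.99 and 14.9 CPM in T1 (-1.65 ± 0.30, edgeR, adjusted p = 0.025). For these 3 genes neither T3 library reached a T1 library. Over 13 other settings the adjusted p ran from 4.51e-10 to 0.138 for LOC106570861, from 1.08e-06 to 0.255 for LOC106590759 and from 0.000736 to 0.179 for LOC106592241. LOC106570861 had an adjusted p over 0.05 by edgeR without T1 sample 1 (0.0660), T3 sample 1 (0.0711) or T3 sample 2 (0.138). The same held for LOC106590759 and LOC106592241 without either T1 library (0.0659 to 0.157), without either T3 library (0.128 to 0.255) and without nuclei of 2500 or more genes (0.0723 for LOC106590759 and 0.0574 for LOC106592241).

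Setting T1 against T3 and T4 together, 13 of the 39 genes (33.3%) had both T1 libraries above all 4 later ones, where 14.8% of the 24815 tested genes and 16.2% of the 13599 genes at 10 CPM or more in T2 did. Besides the 3 chemokine genes, LOC106590759, LOC106592241 and rn138, these were LOC106576268, LOC106608493, LOC106575629, LOC100194560, cdh26.2 (LOC106571918), LOC106567852 and LOC106589858. The T cell and myeloid marker lists, which differed in the same direction between these libraries, are given with the chemokine genes. The selection itself set an upper limit on the T1, T3 and T4 levels, so nothing is read from the difference between the shares.

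**Figure D5:**
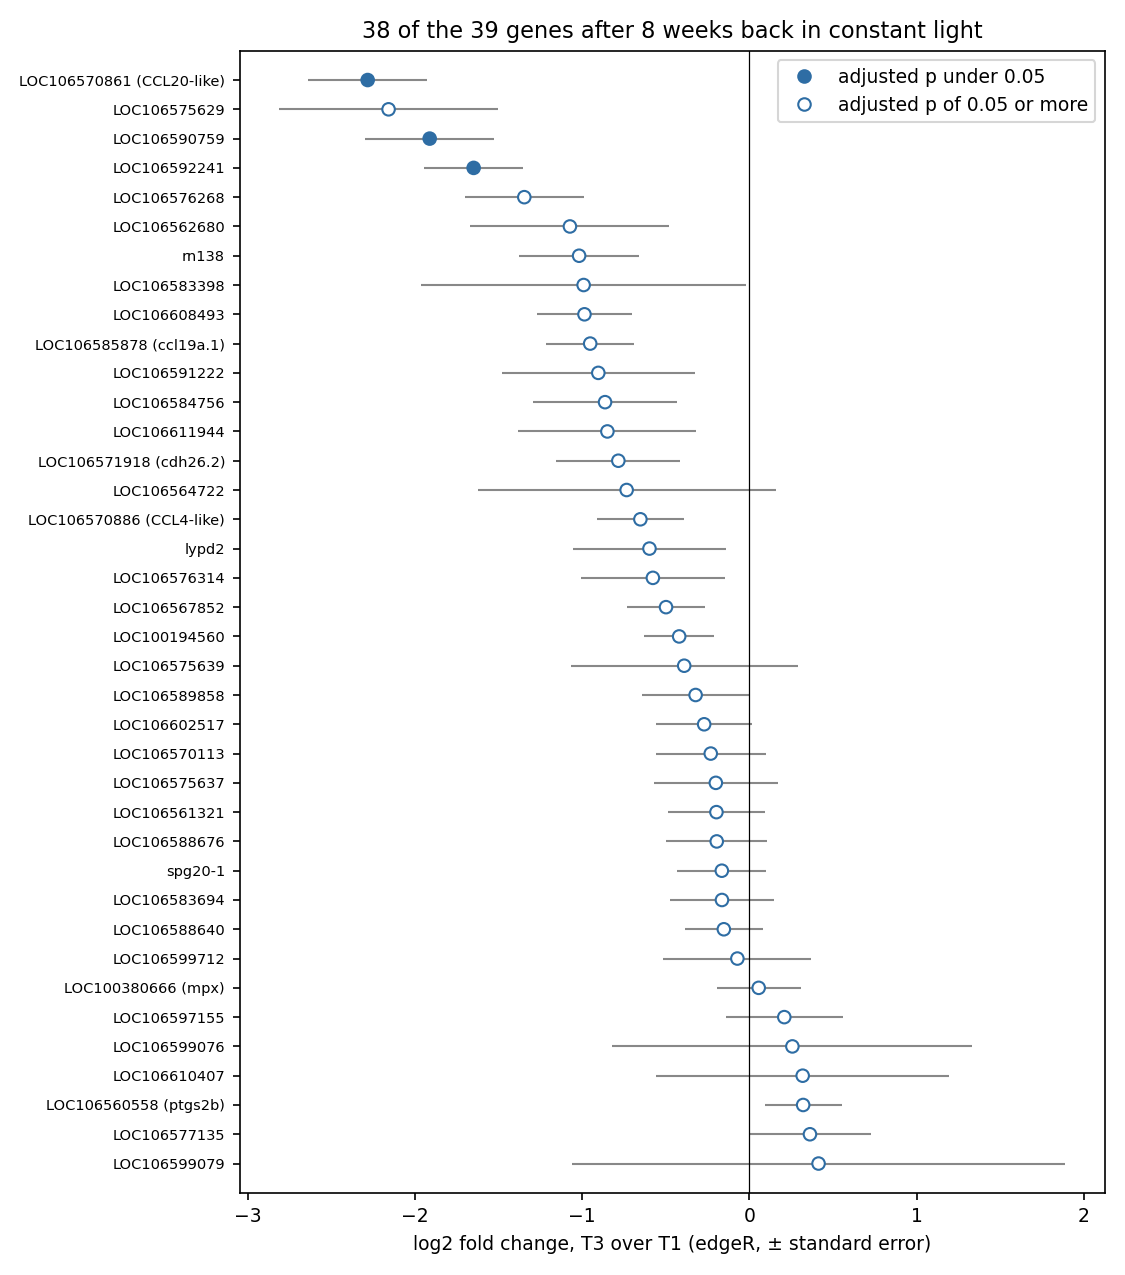
Log2 fold change of T3 over T1 for 38 of the 39 genes, from edgeR over all genes, with the standard error as bars; filled points have an adjusted p under 0.05. Of the 38 points, 31 lie left of 0, and the 3 filled ones are LOC106570861 at -2.28, LOC106590759 at -1.91 and LOC106592241 at -1.65.

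The 24 h in seawater gave no call. For T4 with T3, 0 of the 39 genes passed at an adjusted p under 0.01 in edgeR, where 0.0% of all genes passed, and 3 (7.69%) had an unadjusted p under 0.05, against 2.03% of all genes, while DESeq2 called 0. These 3 were LOC106589858 (2.74 and 3.61 CPM in T4 against 8.65 and 6.45 CPM in T3), LOC106610407, whose fitted fold rests on libraries at 0 and is not given, and LOC106611944 (28.3 and 99.6 CPM in T4 against 23.9 and 22.1 CPM in T3, log2 fold change 1.46 ± 0.53, edgeR, adjusted p = 1.0). The T4 level of LOC106611944 differed between duplicates by more than the time points did. The median log2 fold change of T4 over T3 was -0.01 over the 39 genes and 0.00 over all genes.

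None of the 39 genes was matched to the 9 pathway lists drawn up for this tissue and treatment. The lists cover the circadian clock, the glucocorticoid response, prolactin, growth hormone and thyroid signalling, immediate early genes, and heat shock and unfolded protein. They also cover gill ion transport, the cell cycle, the interferon response, and lipid and sterol synthesis. Loci were matched by name, and 29 of the 39 genes are known only by a locus identifier. The lists hold 215 of 34514 genes, so nothing is read from the lack of a match. Of 191 tested loci on these lists, 0 passed for T2 with T1 in edgeR and 0 by DESeq2. At an unadjusted p under 0.05 (edgeR) there were 34 of the 191, beside 1751 of all 24815 genes (7.06%). Whether the lists differ from all genes in this was not tested. For T3 with T2, 7 of the 191 passed in edgeR, beside 75 of all 24815 genes. No locus of the clock list (36 tested), the immediate early list (21), the heat shock list (15), the cell cycle list (21), the lipid list (18) or the hormone list (11) was among the 7.

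Of 29 tested ion transport loci, 3 were lower and 1 was higher in T3 than in T2. LOC106562250, an ammonia channel gene of the RHCG family, had 37.8 and 24.6 CPM in T3 against 598 and 1180 CPM in T2 (log2 fold change -4.92 ± 0.60, edgeR, adjusted p = 0.00495). Its T1 libraries, at 1234 and 404 CPM, overlapped those of T2. The sodium pump loci LOC106602157 (-2.22) and LOC106610479 (-1.88) were also lower in T3. Both had T1 libraries above both T2 libraries. LOC106602157 had 721 and 564 CPM in T1 against 532 and 416 CPM in T2. For LOC106610479 the levels were 584 and 489 CPM in T1 against 433 and 467 CPM in T2. The sodium pump locus LOC106575572 was higher in T3 (2.83). It had 956 and 1261 CPM in T3, against 160 and 135 CPM in T2 and 188 and 336 CPM in T1.

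Of 20 tested interferon loci, 2 were lower in T3 than in T2. The transcription factor gene irf1-2 had 173 and 165 CPM in T3 against 552 and 544 CPM in T2 (log2 fold change -1.78). For cxl10 the levels were 13.6 and 6.75 CPM in T3 against 37.5 and 40.6 CPM in T2 (-2.03). In T1, irf1-2 had 373 and 484 CPM and cxl10 had 53.1 and 49.4 CPM. Of 20 tested loci of the glucocorticoid list, LOC106603639, a ZBTB16 locus, was higher in T3 (3.38). It had 66.0 and 60.8 CPM in T3, against 3.51 and 7.44 CPM in T2 and 9.92 and 12.4 CPM in T1. Over 13 other settings these 7 calls held in 4 (cxl10) to 9 (LOC106575572). Without nuclei of 2500 or more genes, LOC106575572 (edgeR, adjusted p = 0.0051) and LOC106602157 (0.0096) still passed. The others of the 7 did not pass there (edgeR, adjusted p 0.0101 to 0.0152). All 7 were lost without T3 sample 1 (adjusted p 0.0158 to 0.0667), T3 sample 2 (0.0355 to 0.126) or T2 sample 2 (0.0204 to 0.0558), 6 were lost without T2 sample 1 (0.0151 to 0.0205, LOC106562250 excepted) and 5 without either T4 library, all by edgeR. The summed level of the myeloid or dendritic cell list was 279 and 209 CPM in T3 against 464 and 427 CPM in T2, and that of the T cell list 131 and 86.0 CPM in T3 against 141 and 245 CPM in T2. Their part in the interferon list was not tested.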

How the data were processed

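The authors sequenced nuclei of frozen gill with the 10x Chromium 3′ v3 kit and deposited raw UMI counts per gene and nucleus, made with Cell Ranger (3.1.0 in the methods, 3.0.1 in the submitters' processing notes) on the ICSASG_v2 genome with the NCBI annotation release 100. The deposited counts were used without filtering of nuclei, and doublets were not removed.

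Counts were summed per library. edgeR 4.0.16 (R 4.3.3; TMM, filterByExpr with a minimum count of 10, all 8 libraries in one fit, Benjamini-Hochberg, adjusted p under 0.01) was checked on simulated counts; DESeq2 1.42.0 was an alternative. Nuclei were clustered with Seurat 5.3.0 (duplicates pooled per time point, T1 as reference, 2000 variable genes, 30 dimensions, resolution 0.3), and a marker counted as enriched at a log2 fold of at least 1 with 5 CPM added. Further alternatives were no filter, a replicate block, 16 hemoglobin genes left out, deep nuclei left out, fixed cluster shares, TMM-scaled CPM, a ratio of 2, a minimum of 20 CPM, and each library left out.

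The 39 genes and all lists were chosen with earlier results of these data known. Named genes were the 25 with the highest ratio, the 5 with the highest lower T2 level, those with a shared product name, the 3 on each side of the limit, any called for T3 with T1 or T4 with T3, and pathway loci called in T2 with T1 or T3 with T2. RefSeq's Ssal_v3.1 table matched 23594 of 27587 locus identifiers and was used for names and gene order only. Sequences and promoter motifs were not used here, and 1 of the 39 genes is counted but not reported by name.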

Additional observations from a re-analysis of the deposited data

How the results depend on the processing

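The number of genes that met the selection was 24 with fixed cluster shares (20 of the 39 shared) and 12 with a ratio of at least 2. It was 41 to 196 when a library was left out, with 86 and 78 without T1 sample 1 and 2 and 150 and 196 without T2 sample 1 and 2. Leaving out a library removes a limit of the selection, so it can only add genes, and all 39 stayed each time. Calls over all genes for T2 with T1 were 1 in the report, and 3 at a threshold of 0.05, 29 with DESeq2 (16 higher in T2), 265 without the filter and 1 to 4 with a library left out (4 without T2 sample 2 or either T4 library, 2 without T1 sample 2). For T3 with T2 the 75 calls became 569, 377 and 1328 under the same 3 settings, 33 without nuclei of 2500 or more genes and 4 to 67 with a library left out (16 and 20 without T2 sample 1 and 2, 10 and 4 without T3 sample 1 and 2, 44 and 46 without T4 sample 1 and 2). For T3 with T1 the 31 calls (13 higher in T3) became 474, 290 (87 higher) and 1183, and 0 to 26 with a library left out (0 and 5 without T1 sample 1 and 2, 1 without either T3 library, 9 without T2 sample 1, 10 without either T4 library). For T4 with T3 the 0 calls became 1, 1 and 51. Of the 39 genes, 3 (threshold of 0.05), 2 (DESeq2) and 6 (no filter) were called for T3 with T1 and 2 (no filter) for T4 with T3, and 0 with any library left out. Leaving out a library left its time point with 1 library, assumed to vary like the others. The cause of the changes in the calls was not tested. With the replicate number as a block the calls were 2, 77, 27 and 0 for the 4 contrasts, and 0 of the 39 genes for T3 with T1 and T4 with T3. Deviations of samples with the same number correlated at -0.05 to 0.20. Such low values do not settle whether the numbers pair the samples.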
